A study of Danio rerio with 5 samples.

Results

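The Hox genes of the zebrafish were followed across 5 Affymetrix arrays, each hybridised with total RNA of embryos at 72 h after fertilization. Members were all probe sets whose array annotation gave a Hox symbol with a cluster letter, a paralog number and a cluster copy, whether or not a signal was detected. The rule found 59 probe sets of 42 genes among 15502 probe sets, of which those with 1 symbol covered 8793 genes. The zebrafish RefSeq annotation lists 49 genes with symbols of this form. They were classed by paralog number into 17 probe sets of paralogs 1 to 4 (13 genes), 18 of paralogs 5 to 8 (12 genes) and 24 of paralogs 9 to 13 (17 genes).

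All embryos came from wild-type natural spawnings and received a morpholino at 130 µmol/L at the 1- to 2-cell stage. The control morphants (n = 2) and the Bdh2 morphants (n = 2) received a morpholino alone. The third group (n = 1) consisted of Bdh2 morphants co-injected with capped mRNA of mouse bdh2 at 50 µg/ml, here called the array with ectopic Bdh2. The labels give neither the mode of action of the morpholino nor the number of embryos per array, and they name no separate clutches, so that p-values measure only the spread between these samples.

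Hox genes code for homeodomain transcription factors that give the body its regional identity from head to tail. They lie in clusters in which, in vertebrates, genes of low paralog number are expressed furthest forward, in the hindbrain and the pharyngeal arches, and genes of high paralog number in the posterior trunk, the tail and the distal fin. Zebrafish hold additional cluster copies from the genome duplication of teleost fish, named by a second letter (hoxba and hoxbb, for example).

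Median intensity over all probe sets lay between 142 and 174, highest with ectopic Bdh2. The bdh2 probe set read 344 and 335 in controls, 235 and 643 in Bdh2 morphants and 142 with ectopic Bdh2. It did not pass the test between Bdh2 morphants and controls (log2 difference 0.19, SE 0.50, limma adjusted p = 1.00). Since the mode of action of the morpholino is not given, this probe set gives no check of the knockdown. Whether it detects the injected mouse mRNA was not examined. Arrays with the same replicate number resembled each other. The difference of replicate 2 from replicate 1 among controls and that among Bdh2 morphants correlated at r = 0.538 over 9301 tested probe sets. Over the 59 Hox probe sets, tested or not, the correlation was r = 0.263. A correlation leaves out a shift common to all of them. Hox probe sets were higher in replicate 2 by a median of 0.44 in controls and 0.41 in Bdh2 morphants. The medians of all probe sets were 0.01 and -0.07. The array with ectopic Bdh2 is labelled number 1. Values within each replicate number therefore stand beside the results. The array with ectopic Bdh2 stood apart in tissue markers, as the plot of summed marker intensities shows. The 5 skeletal muscle markers on the array summed to between 84183 and 110924 in the other arrays and to 13572 with ectopic Bdh2. The 4 liver markers summed to between 27962 and 38462, against 7049. The 8 neuron markers summed to 15086 and 13485 in controls, 13372 and 6473 in Bdh2 morphants and 19343 with ectopic Bdh2, the highest of the 5 arrays. The 5 red blood cell markers summed to between 34592 and 76096 over all arrays, and the 3 epidermis markers to between 29096 and 52518, lowest with ectopic Bdh2. The 6 eye markers summed to between 227 and 503 in Bdh2 morphants and to between 1976 and 3909 in the other arrays. No marker was at 0 in every array. In RNA of whole embryos, fewer cells of a type and less RNA per cell cannot be told apart.

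**Figure D1:**
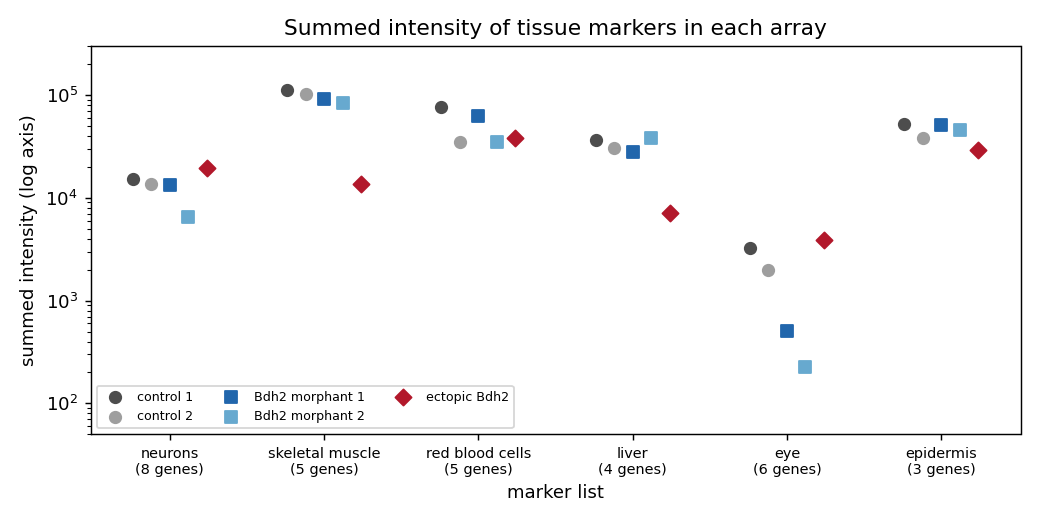
Summed intensity (log axis) of marker genes of 6 tissues in each of the 5 arrays, with 1 point per array and no error bars because each point is 1 array. The array with ectopic Bdh2 lies below the 4 others for muscle (13572) and liver (7049) and above them for neurons (19343).

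With ectopic Bdh2, most Hox genes of paralogs 5 to 11 had lower signals than in controls, while those of paralogs 1 to 4 had values near the controls. Intensities were analysed as log2(intensity + 16), and differences are on that scale. Against controls, the median difference was 0.01 for the 17 probe sets of paralogs 1 to 4, -1.02 for the 18 of paralogs 5 to 8 and -1.45 for the 24 of paralogs 9 to 13. The median of all 15502 probe sets was 0.12. Counted by gene, with the probe set of the highest mean, 7 of 13 genes of paralogs 1 to 4 had lower values than in controls, as did 12 of 12 of paralogs 5 to 8 and 15 of 17 of paralogs 9 to 13. Counted by probe set without that choice, it was 8 of 17, 14 of 18 and 21 of 24. Over all probe sets of the array 41.2% had lower values. With each array centred on its own median the 3 class medians were -0.09, -1.12 and -1.55, so that the sign for paralogs 1 to 4 depends on the scaling. In the same array the 5 muscle markers had a median difference of -2.99 from controls and the 4 liver markers one of -2.47, and their part in the Hox values was not tested.

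The array with ectopic Bdh2 was the lowest of the 5 for 16 of the 24 probe sets of paralogs 9 to 13, for 10 of the 18 of paralogs 5 to 8 and for 4 of the 17 of paralogs 1 to 4. Over all probe sets it was the lowest of the 5 in 19.0%. It was the highest for 4, 3 and 0 Hox probe sets of paralogs 1 to 4, 5 to 8 and 9 to 13, against 32.5% of all probe sets. A log2 difference under -1 from controls was seen in 15 probe sets of paralogs 9 to 13, 10 of paralogs 5 to 8 and 0 of paralogs 1 to 4, against 4.82% of all probe sets, and a difference over 1 in 0 of 59 (5.01%). It lay below both controls for 36 of the 59 and above both for 8, against 27.5% and 43.4% of all probe sets. Against Bdh2 morphants, the class medians were 0.11 for paralogs 1 to 4, -0.63 for paralogs 5 to 8 and -0.73 for paralogs 9 to 13, with 0, 3 and 10 probe sets under -1 (4.96% of all probe sets). Against the Bdh2 morphant of replicate number 1 the 3 medians were 0.10, -0.49 and -0.34, and against that of number 2 they were 0.04, -0.64 and -1.34, so the size of the posterior difference depends on the replicate. Against control replicates 1 and 2 they were 0.18 and -0.20 for paralogs 1 to 4, -0.75 and -1.26 for paralogs 5 to 8 and -1.17 and -1.65 for paralogs 9 to 13. There is thus no stable sign for paralogs 1 to 4 against controls. In the comparison with Bdh2 morphants, 2 Hox probe sets differed by over 1 (9.12% of all), 33 of the 59 lay below both Bdh2 morphants and 13 above both (28.0% and 42.8% of all), and 42 had lower values (41.5% of all). Centred arrays gave -0.09, -0.83 and -0.93, again with the opposite sign for paralogs 1 to 4. Both comparisons use the same single array with ectopic Bdh2, and their values are therefore not independent. Across the 42 genes, Spearman's rho between paralog number and log2 difference was -0.50 against controls and -0.40 against Bdh2 morphants, given as a description because the genes share the same arrays.

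**Figure D2:**
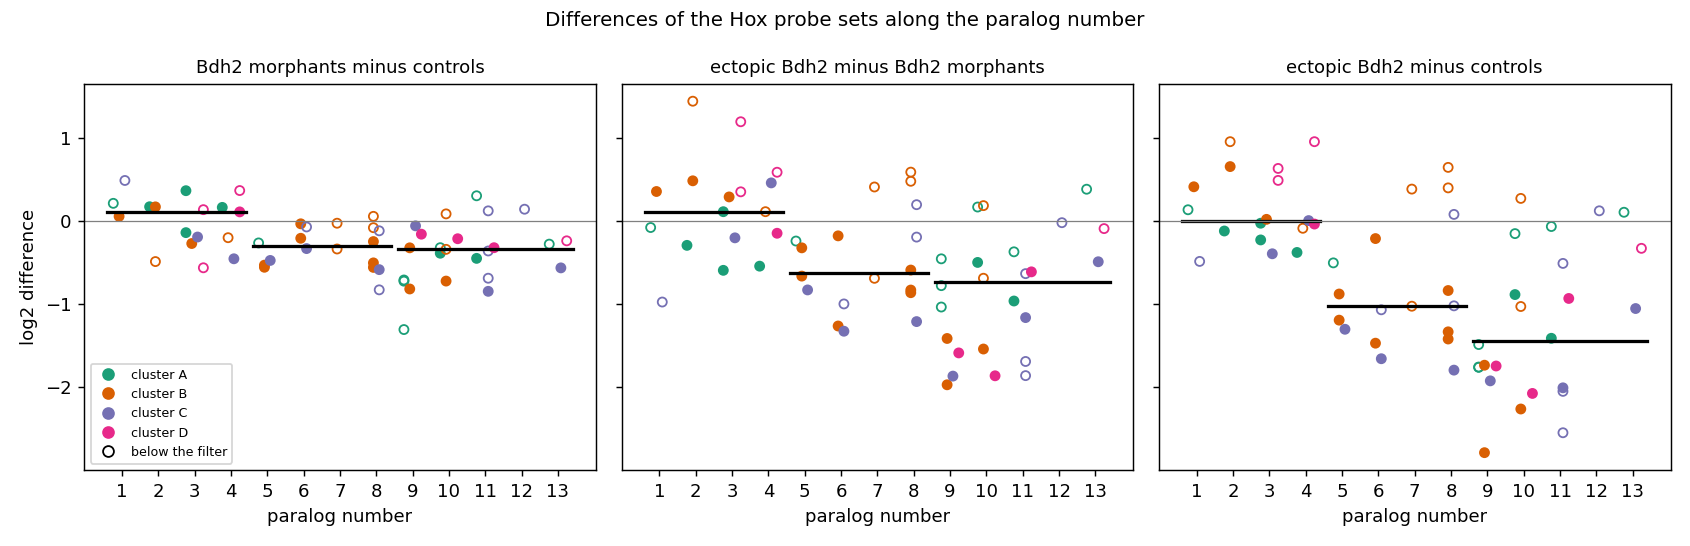
Log2 difference of each of the 59 Hox probe sets (vertical axis) against its paralog number (horizontal axis) in the 3 comparisons, coloured by cluster letter, with open circles for probe sets below the intensity filter and black lines for class medians. In the comparison of ectopic Bdh2 with controls the lines step down from 0.01 to -1.02 and -1.45.

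Only probe sets with a mean above the 40th percentile, an intensity of 97.6, were tested: 31 Hox probe sets of 28 genes passed and 28 did not. A posterior gene passes this filter through the arrays in which it is high, so counts among the tested members describe them and support nothing further. Against controls, 1 Hox probe set passed the threshold of 0.05 on adjusted p (limma, all 9301 tested probe sets), where 0.667% of all tested probe sets were called lower. At an unadjusted p under 0.05, 13 of the 31 were lower and 0 higher, against 4.67% and 2.35% of all tested probe sets. Against Bdh2 morphants 0 passed (limma, smallest adjusted p = 0.152), where 0.505% of all tested probe sets were called lower and 0.527% in either direction, and 10 were lower at an unadjusted p under 0.05 (5.56% of all). The sole call came from the group with 1 array, which is assumed to vary like the replicated groups.

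That probe set was 1 of 2 for hoxb9a, a gene of the posterior trunk. Its intensity was 501 and 502 in controls, 258 and 299 in Bdh2 morphants and 58.9 with ectopic Bdh2. The 3 groups did not overlap, and the array with ectopic Bdh2 was the lowest. It fell by 2.79 on the log2 scale from controls (SE 0.40, limma adjusted p = 0.0391), a 6.90-fold lower value. The call was lost when 64 was added in place of 16 (adjusted p = 0.0560), with a filter at the 20th percentile (0.0528), without a filter (0.110) and without Bdh2 morphant replicate 1 (0.0515) or 2 (0.0523). From Bdh2 morphants the difference was -1.97 (SE 0.40, adjusted p = 0.152). The other hoxb9a probe set read 179 and 150 in controls, 113 and 144 in Bdh2 morphants and 38.0 with ectopic Bdh2. Its difference from controls was -1.73 (SE 0.43, adjusted p = 0.300), the same direction without a call.

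The remaining group 9 genes also had lower values with ectopic Bdh2 than in controls. For hoxc9a the intensities were 238 and 295 in controls, 141 and 449 in Bdh2 morphants and 58.1 with ectopic Bdh2. For hoxd9a they were 115 and 165, then 79.5 and 183, and 29.9. The array with ectopic Bdh2 was the lowest for both genes, while the Bdh2 morphant arrays lay on either side of the controls. Log2 differences from controls were -1.92 (SE 0.66) for hoxc9a and -1.74 (SE 0.57) for hoxd9a, neither past the threshold. The hoxa9a probe sets and hoxa9b lay below the filter and were not tested. All 7 probe sets of group 9 had differences between -2.79 and -1.49 from controls. The hoxa9b probe set was the only one of these 7 for which another array was lower, since Bdh2 morphant replicate 1 read 27.9 against 45.5 with ectopic Bdh2.

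In group 10, hoxb10a read 177 and 173 in controls, 53.5 and 176 in Bdh2 morphants and 23.8 with ectopic Bdh2. The gene hoxd10a, active in the posterior body axis and the fins, read 290 and 440, then 158 and 580, and 72.7. In both cases Bdh2 morphant replicate 1 lay well below replicate 2, and the array with ectopic Bdh2 lay below both. The differences from controls were -2.26 (SE 0.64) and -2.07 (SE 0.73), with adjusted p = 0.404 and 0.586 (limma). In group 11, hoxc11a read 244 and 183 in controls, 108 and 113 in Bdh2 morphants and 40.6 with ectopic Bdh2, a difference of -2.01 (SE 0.43, adjusted p = 0.203). Its 3 groups did not overlap. The probe set of hoxc11b, the second copy of that gene, lay below the filter and read 82.1 and 64.6, then 26.0 and 98.5, and 5.49. The signal with ectopic Bdh2 was the lowest for all 7 probe sets of group 11, although for hoxa11a by a small margin (50.5 against 50.6 in control replicate 2) and for the dimmest hoxc11a probe set by less still (4.47 against 4.48 in Bdh2 morphant replicate 1).

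The last groups of the clusters, 12 and 13, had 1 and 3 probe sets with mixed values, and only 1 of them was tested. The probe set of hoxc12b read 75.5 and 103 in controls, 94.2 and 104 in Bdh2 morphants and 97.7 with ectopic Bdh2. That of hoxa13b, a gene of the tail and distal fin, read 49.4 and 91.3, then 46.5 and 60.4, and 74.2. Both lay below the filter and were not tested, and neither had its lowest value with ectopic Bdh2. The tested member, hoxc13a, read 343 and 304, then 117 and 381, and 148, a difference of -1.05 from controls (SE 0.66, adjusted p = 0.773). Its lowest array was Bdh2 morphant replicate 1, and the array with ectopic Bdh2 lay below both controls. The difference of hoxc13a was lower than those of the tested hoxa10b (-0.88) and hoxd11a (-0.93). Other tested members of groups 10 and 11 were lower still, to -2.26 for hoxb10a. Untested probe sets of groups 10 and 11 were mixed. Some lay near the controls, such as hoxa11a (-0.07) and 1 of hoxb10a (0.27). Others lay far below them, such as hoxc11b (-2.05) and 1 of hoxc11a (-2.55). Whether the smaller differences go with paralog group or with signal level was not tested. The median difference was -0.33 for the 3 probe sets of group 13, against -1.76 for the 7 of group 9, -0.96 for the 6 of group 10 and -1.41 for the 7 of group 11.

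**Figure D3:**
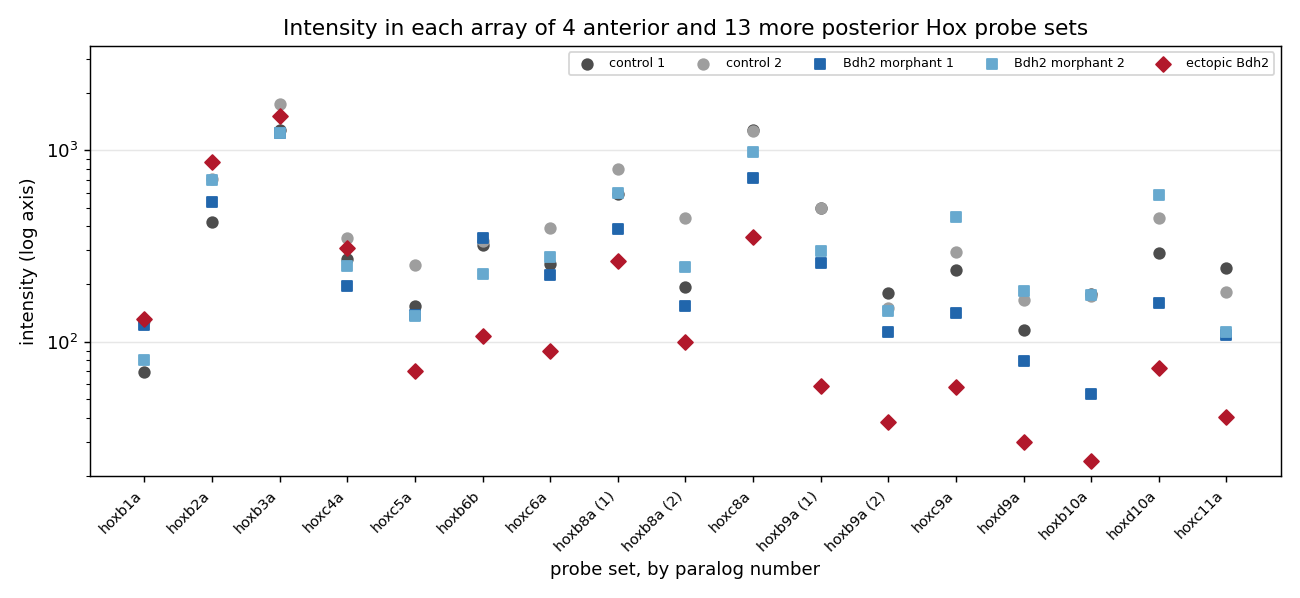
Intensity (log axis) in each of the 5 arrays of 17 Hox probe sets ordered by paralog number, 1 point per array: hoxb1a, hoxb2a, hoxb3a and hoxc4a, and the 13 with an unadjusted p under 0.05 between ectopic Bdh2 and controls. The red points of the array with ectopic Bdh2 are the highest of the 5 for hoxb1a and hoxb2a and lie between the controls for hoxb3a and hoxc4a. They lie below all others from hoxc5a onwards, for example at 58.9 for the first hoxb9a probe set. The anterior sets shown had the highest tested Hox differences with ectopic Bdh2, and the others were picked by their p-value. The contrast between them therefore follows from the choice.

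The central paralogs 5 to 8, which pattern the anterior and middle trunk, were intermediate in their median difference from controls. Against Bdh2 morphant replicate 1 their median (-0.49) was lower than that of paralogs 9 to 13 (-0.34). The gene hoxc8a, a marker of the trunk, read 1271 and 1254 in controls, 712 and 983 in Bdh2 morphants and 353 with ectopic Bdh2. The 3 groups did not overlap, and the difference from controls was -1.79 (SE 0.41, limma adjusted p = 0.234). For hoxc6a the intensities were 254 and 392, then 223 and 276, and 89.3, a difference of -1.66 (SE 0.46). For hoxb6b they were 320 and 334, then 348 and 226, and 108, a difference of -1.47 (SE 0.44). Both hoxc6a and hoxb6b had overlapping values in controls and Bdh2 morphants and their lowest value with ectopic Bdh2, and neither passed the threshold. Of the hoxb8a probe sets, the brighter read 593 and 800 in controls, 388 and 596 in Bdh2 morphants and 264 with ectopic Bdh2. The second read 194 and 444, then 153 and 247, and 100.1, with differences of -1.33 (SE 0.46) and -1.42 (SE 0.59) from controls.

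Within group 5, hoxb5a behaved differently from the genes just described, since Bdh2 morphant replicate 2 was its lowest array. It read 553 and 825 in controls, 599 and 344 in Bdh2 morphants and 360 with ectopic Bdh2. The gene hoxc5a read 153 and 253, then 139 and 136, and 70.5, a difference of -1.30 (SE 0.46, adjusted p = 0.589). The 3 tested genes of group 5 had differences of -1.30 to -0.88 from controls. Among the tested central genes hoxb6a stood nearest to its controls, at 167 with ectopic Bdh2 between control values of 111 and 337 (difference -0.21, SE 0.64).

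The anterior paralogs 1 to 4 serve hindbrain segments and the neural crest that leaves them. None of their 10 tested probe sets passed an unadjusted p of 0.05 in any of the 3 comparisons (limma). The other 7 lay below the filter and were not tested. Against Bdh2 morphants, 2 of these 7, of hoxb2a and hoxd3a, had differences over 1, and 0 were under -1. Both had their highest value with ectopic Bdh2. The gene hoxb3a read 1277 and 1735 in controls, 1231 and 1233 in Bdh2 morphants and 1511 with ectopic Bdh2. The gene hoxb2a, a gene of the hindbrain, read 420 and 704, then 538 and 703, and 867. The array with ectopic Bdh2 was the highest of the 5 for hoxb2a and lay between the controls for hoxb3a. For hoxb1a, a gene of the fourth hindbrain segment, the intensities were 69.6 and 129, then 122 and 80.7, and 132. Differences from controls were 0.02 for hoxb3a (SE 0.39), 0.66 for hoxb2a (SE 0.47) and 0.41 for hoxb1a (SE 0.51). None was near the threshold (limma adjusted p = 0.995, 0.790 and 0.868). For hoxc4a the values were 272 and 347, then 195 and 249, and 309. These named genes had the highest tested differences of the class with ectopic Bdh2. Other tested members had their lowest value in that array, among them hoxc3a (-0.39 from controls) and hoxa4a (-0.38). Of the 17 probe sets of the class, 8 were lower than in controls and 9 higher. Differences of the whole class from controls ran from -0.49 to 0.96, so no member reached the values of the group 9 genes.

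Group by group, the median difference from controls was 0.14, 0.66, -0.00 and -0.04 for paralogs 1, 2, 3 and 4, then -1.04 and -1.27 for paralogs 5 and 6. In this comparison the step thus lay between groups 4 and 5. The 4 probe sets of group 5 had a median of -0.65 against control replicate 1 and -1.40 against control replicate 2. Groups 7 and 12, with 1 gene each, had medians of -0.32 and 0.12. Group 8 stood at -0.93 over 8 probe sets of 3 genes. Against Bdh2 morphants the medians of groups 4, 5 and 6 were 0.11, -0.49 and -1.13. For Bdh2 morphants against controls they were 0.11, -0.50 and -0.14.

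**Figure D4:**
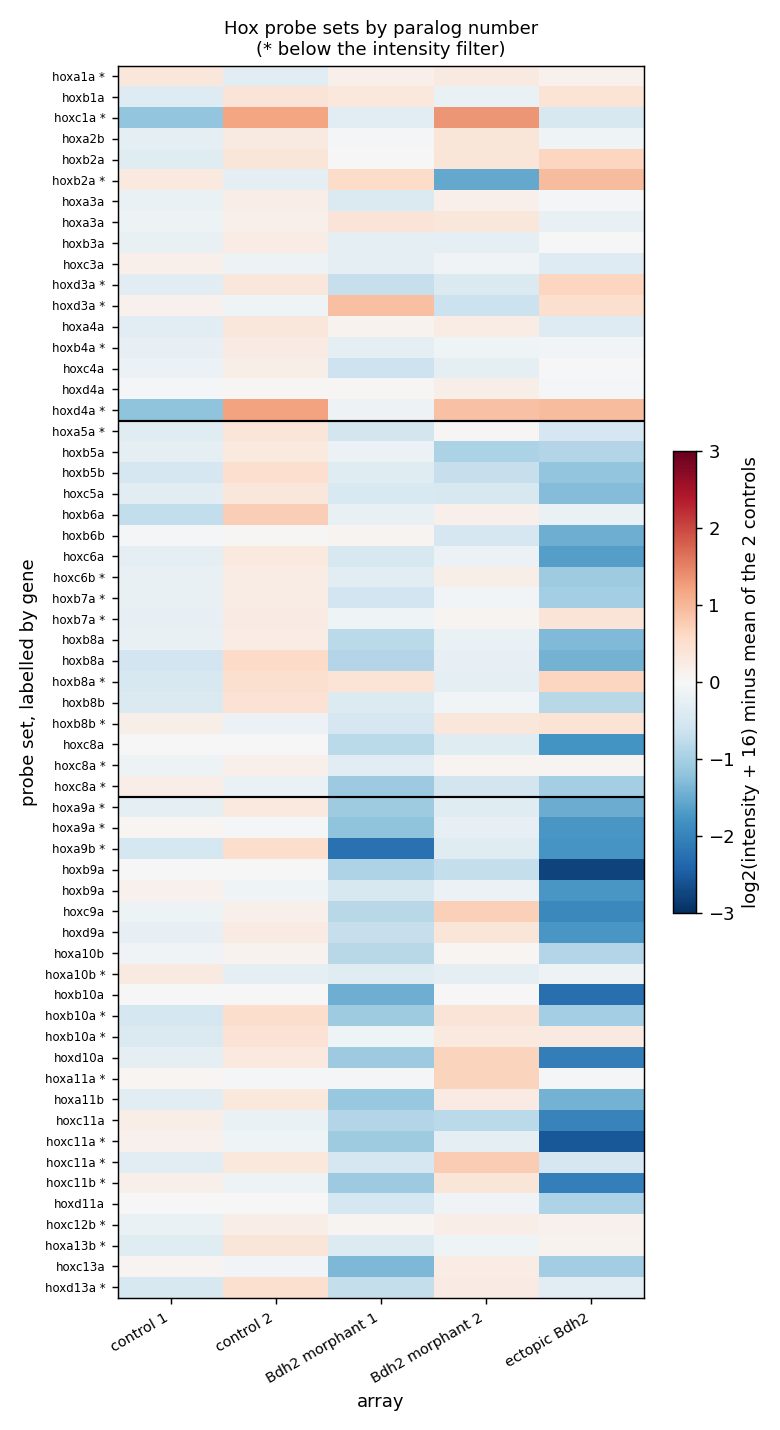
Each of the 59 Hox probe sets (rows, by paralog number, with lines after groups 4 and 8) in each of the 5 arrays (columns), coloured by log2(intensity + 16) minus the mean of the 2 controls; an asterisk marks probe sets below the filter. The column of ectopic Bdh2 is blue for 14 of the 18 probe sets of paralogs 5 to 8 and 21 of the 24 of paralogs 9 to 13, to -2.79, and Bdh2 morphant replicate 1 is blue in the lowest block.

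By cluster letter, the median difference between ectopic Bdh2 and controls was -0.30 for the 14 probe sets of cluster A, -0.84 for the 21 of cluster B, -1.06 for the 16 of cluster C and -0.18 for the 8 of cluster D. These letters differ in which paralogs the array holds. Within paralogs 9 to 13 the medians were -1.15, -1.73, -1.92 and -1.34 for clusters A, B, C and D. Within paralogs 1 to 4 they were -0.12, 0.41, -0.39 and 0.56. Each letter thus had its lower values in the posterior genes. Cluster B had the closest order by paralog number, with a Spearman's rho of -0.84 over 13 genes, against -0.26 over 11 genes of cluster A, -0.33 over 12 of cluster C and -0.49 over 6 of cluster D. Against Bdh2 morphants the values were -0.89, -0.24, -0.22 and -0.26 for clusters B, A, C and D.

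The comparison of Bdh2 morphants with controls asks what changes when Bdh2 is targeted. Posterior Hox genes had lower values in Bdh2 morphant replicate 1 and less so in replicate 2, and no Hox probe set passed the test. In this comparison 0.00% of all tested probe sets were called, and the smallest adjusted p of a Hox probe set was 1.00 (limma). At an unadjusted p under 0.05 there were 2 of 31 lower and 0 higher, against 1.92% and 0.161% of all tested probe sets. They were hoxb9a, with a difference of -0.82 (SE 0.33), and hoxc11a, with -0.85 (SE 0.35), whose values in every array are given above. The Bdh2 morphants lay wholly below the controls for 14 of the 59 Hox probe sets and wholly above for 2, against 15.1% and 12.0% of all probe sets. Lower values were seen for 44 of the 59 (51.2% of all). A difference under -1 was seen for hoxa9b alone (2.48% of all) and one over 1 for 0 (0.516% of all). By class, 3, 3 and 8 probe sets of paralogs 1 to 4, 5 to 8 and 9 to 13 lay wholly below.

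The class medians of Bdh2 morphants against controls were 0.11, -0.30 and -0.33 in the order of paralog number, with -0.01 over all probe sets. Within replicate number 1 they were 0.25, -0.14 and -0.70. Within replicate number 2 they were -0.11, -0.45 and -0.07. The posterior class was thus lowest within number 1 and the central class within number 2. Leaving out Bdh2 morphant replicate 1 turned the posterior median to 0.13, and leaving out replicate 2 gave -0.86. The median of paralogs 1 to 4 turned to -0.20 without control replicate 1 and to -0.03 without Bdh2 morphant replicate 2. That of paralogs 5 to 8 was -0.63 without control replicate 1 and -0.04 without control replicate 2. No class had a median of stable size in this comparison. Within number 1, 22 of 24 posterior probe sets were lower in the Bdh2 morphant, against 49.2% of all probe sets. Within number 2 it was 15 of 24, against 54.6%. Examples are hoxd10a at -0.81 and 0.39 and hoxb10a at -1.47 and 0.03 within numbers 1 and 2. The brighter hoxb9a probe set was lower in both, at -0.91 and -0.72. The central hoxb5a showed the reverse, at 0.11 and -1.22.

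**Figure D5:**
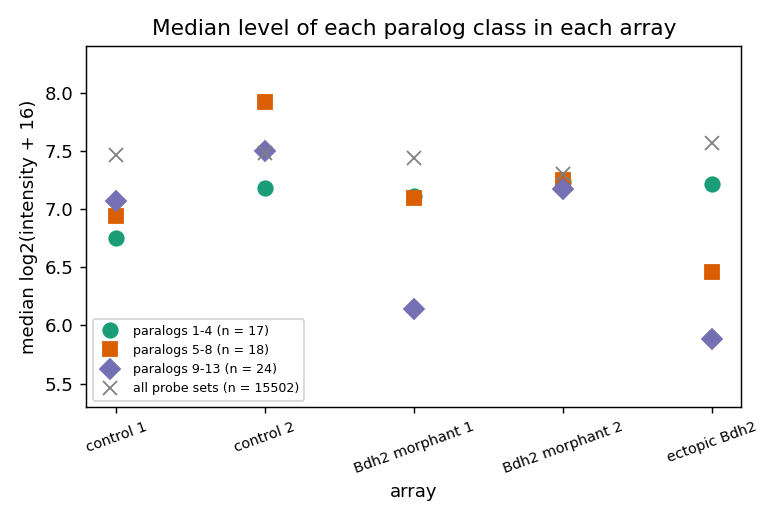
Median log2(intensity + 16) (vertical axis) of each paralog class and of all probe sets in each of the 5 arrays. The median of paralogs 9 to 13 is lowest with ectopic Bdh2 (5.88) and in Bdh2 morphant replicate 1 (6.14), whereas paralogs 1 to 4 lie between 6.75 and 7.23.

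The replicates of the Bdh2 morphants differed in these same genes. All 24 probe sets of paralogs 9 to 13 were higher in replicate 2 than in replicate 1, with a median difference of 0.91, while 45.1% of all probe sets were higher in replicate 2. In controls 15 of the 24 were higher in replicate 2, with a median of 0.26, and 50.7% of all. The other classes were also higher in replicate 2. The medians of paralogs 5 to 8 were 0.54 in controls and 0.40 in Bdh2 morphants. Those of paralogs 1 to 4 were 0.44 and 0.14. The median of paralogs 9 to 13 minus that of paralogs 1 to 4 was 0.32 in both control arrays, -0.98 in Bdh2 morphant replicate 1, -0.06 in replicate 2 and -1.33 with ectopic Bdh2. The 3'/5' ratio of the acta1 control, which is higher in degraded RNA, was 4.28 and 2.60 in controls, 11.8 and 3.49 in Bdh2 morphants and 6.63 with ectopic Bdh2. It was highest in Bdh2 morphant replicate 1 and next highest with ectopic Bdh2. The median log2 value of paralogs 9 to 13 was lowest with ectopic Bdh2 (5.88) and next lowest in Bdh2 morphant replicate 1 (6.14). The same ratio of the gapdh control was 2.82 in Bdh2 morphant replicate 1, 2.68 in control replicate 1 and 1.99 with ectopic Bdh2. It was lower still in the arrays of replicate number 2. The acta1 control is a muscle actin, and muscle markers were low with ectopic Bdh2. Whether this affects the acta1 ratio of that array was not tested. The part of RNA degradation in the result was not tested either.

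Genes with several probe sets gave a measure of how far the reading depends on the probes. Of 13 such genes, 7 had all their probe sets on the same side of 0 against controls in the array with ectopic Bdh2, and 5 did so against Bdh2 morphants. In the other 6 the highest difference from controls came from a probe set below the filter. For hoxb10a the 3 probe sets ranged from -2.26 to 0.27, and the probe set at 0.27 read at most 18.6 in any array. For hoxb8a the range was -1.42 to 0.65, and for hoxc8a -1.79 to 0.08. For hoxd4a the tested probe set read 300.3 and 313 in controls, 316 and 350 in Bdh2 morphants and 299 with ectopic Bdh2. Its other probe set, below the filter, read 15.6 and 155, then 50.2 and 120, and 126.

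Hox proteins bind DNA together with cofactors of the Pbx, Meis and Pknox families. Of 14 listed, 12 were on the array and 11 were tested, and 0 passed the threshold in any comparison (limma). At an unadjusted p under 0.05, 3 were lower in Bdh2 morphants than in controls, and 6 were higher with ectopic Bdh2 than in Bdh2 morphants (1.92% and 6.76% of all tested probe sets). The smallest p belonged to pbx3b, a TALE homeodomain partner, which read 903 and 831 in controls, 386 and 201 in Bdh2 morphants and 1651 with ectopic Bdh2. The values of pknox2 were 377 and 305, then 171 and 148, and 601. For both genes the groups did not overlap, and the array with ectopic Bdh2 was the highest, the opposite of the posterior Hox genes. The differences of pbx3b were -1.58 (SE 0.40) for Bdh2 morphants against controls and 2.495 (SE 0.49, limma adjusted p = 0.140) for ectopic Bdh2 against Bdh2 morphants.

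Regulators of the body axis and of the Hox clusters were less uniform. Among caudal and other axial regulators, 8 of 12 listed were on the array, with a median of -0.59 against controls and 6 of 8 lower, and 0 of 3 tested passed. The gene tbxta, which codes for the Brachyury factor of notochord and tailbud, read 294 and 155 in controls, 262 and 234 in Bdh2 morphants and 33.4 with ectopic Bdh2. That array lay below all others, with a difference of -2.22 from controls (SE 0.50, limma adjusted p = 0.225). The tested sox2, a factor of neural progenitors, had the opposite sign, at 908 and 847 in controls, 780 and 737 in Bdh2 morphants and 1480 with ectopic Bdh2 (0.74 from controls, SE 0.38). The caudal gene cdx4, a known activator of posterior Hox genes in zebrafish, lay below the filter at 33.1 and 163, 54.7 and 143, and 34.9. Its values followed the replicate number. They were low in the arrays of number 1, which include the one with ectopic Bdh2, and higher in those of number 2. The difference between Bdh2 morphants and controls was 0.18.

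Of the 21 Polycomb and Trithorax genes on the array, which keep Hox genes silent or active, 19 were tested and 0 passed. Of these 21, 20 had higher values with ectopic Bdh2 than in controls, a median of 0.46 against 0.12 over all probe sets. The 16 genes of retinoic acid synthesis, breakdown and reception had a median of 0.31, and 0 of 12 tested passed. The 14 hindbrain segmentation genes had a median of 0.44, and 0 of 9 tested passed. In that list egr2a, a gene of hindbrain segments, read 54.6 and 90.0 in controls, 129 and 162 in Bdh2 morphants and 248 with ectopic Bdh2. Its 3 groups did not overlap, with a difference of 1.61 from controls (SE 0.46, limma adjusted p = 0.423). The related egr2b, below the filter, read 56.3 and 87.7, then 50.8 and 77.4, and 66.5, a difference of -0.07 from controls.

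Of 14 somite and muscle genes on the array 9 were tested. With ectopic Bdh2, 11 of the 14 had lower values than in controls. Of the tested genes, 4 were called lower against controls and 4 against Bdh2 morphants (limma). The shares of all tested probe sets called lower were 0.667% and 0.505%. Among those called was mylpfa, a fast muscle myosin light chain. It read 27696 and 25700 in controls, 25478 and 24193 in Bdh2 morphants and 2132 with ectopic Bdh2 (-3.64 from controls, SE 0.22, limma adjusted p = 0.00487). The 16 genes of spinal cord and hindbrain neurons on the array had a median of 0.65 against controls, and 0 of 10 tested passed. The 16 fin genes had a median of 0.01, and 0 of 11 tested passed. Of the 34 other homeobox genes of the wider Antp class and of the anterior head, 24 were tested. Their median was 0.47 against controls, where 0 passed (0.667% of all tested probe sets). It was 0.76 against Bdh2 morphants, where 1 passed (0.527% of all tested probe sets). This was crx, a photoreceptor factor, which read 1081 and 487 in controls, 42.6 and 14.1 in Bdh2 morphants and 1089 with ectopic Bdh2 and rose by 4.72 from Bdh2 morphants (SE 0.63, adjusted p = 0.0359). Against Bdh2 morphants, 0 of all tested probe sets were called without Bdh2 morphant replicate 2 or without the intensity trend in the fit, so the calls of crx and of muscle genes in that comparison rest on these settings.

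Genes next to the clusters were read to see how far the low values extended along the chromosome. For each of the 7 clusters, the 2 nearest protein-coding genes on each side that the array holds were taken from the order of genes in the zebrafish RefSeq assembly GRCz12tu. Of these 28 neighbours, 1 had a difference under -1 between ectopic Bdh2 and controls (hibadha, -1.42) and 7 had their lowest value with ectopic Bdh2, against 4.82% and 19.0% of all probe sets. The homeobox gene evx1, which lies at the posterior end of the hoxaa cluster, read 212 and 141 in controls, 173 and 105 in Bdh2 morphants and 333 with ectopic Bdh2. It was highest where the posterior Hox genes were lowest. At the hoxba cluster eve1, below the filter, read 67.1 and 67.5, then 60.3 and 138, and 44.7.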

How the data were processed

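Total RNA of 72 h embryos was hybridised to the Affymetrix zebrafish array, 5 arrays in all. The authors deposited 1 intensity per probe set and array on a linear scale, made with Affymetrix Expression Console per the submitters' processing notes; the summarisation and normalization method is not given in the sources used here. Of 15617 probe sets, 115 array controls were set aside. The deposited intensities were taken as log2(intensity + 16) with no further scaling, and 9301 of 15502 probe sets with a mean above the 40th percentile were tested (6201 were not). limma 3.58.1 in R 4.3.3 fitted group means to all 5 arrays (eBayes with trend, 2 residual degrees of freedom and a median prior of 4.89), two-sided, with Benjamini-Hochberg adjustment over all tested probe sets at 0.05. The group with 1 array takes its spread from the replicated groups. The small number of arrays limits the precision. The fit was run on simulated data with changes larger than any Hox difference here, placed in the Bdh2 morphant group alone. Recovery of changes in the group with 1 array was therefore not tested.

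Symbols came from the platform annotation, which can be old: 10795 probe sets had 1 symbol, 135 several and 4572 none. All 59 Hox probe sets matched RefSeq under the same symbol. Probe sets of paralogs may share signal, which was not examined.

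Members, gene lists and tests were chosen with earlier results of these data known. Full values are given for bdh2, for Hox probe sets with an unadjusted p under 0.05 in any comparison, the 3 highest and 3 lowest tested differences per comparison, the 2 brightest per class and genes with several probe sets, and for up to 2 members of each context list by smallest p. Other Hox genes were named as members after their values were seen. Alternatives were the added constant, the filter, centring, quantile scaling, no trend, each replicate left out and the replicate number as a block.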

Additional observations from a re-analysis of the deposited data

How the results depend on the processing

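For ectopic Bdh2 against controls, the count of Hox probe sets past the threshold was 1. It was 0 with 64 added in place of 16, with no filter and with a filter at the 20th percentile, 13 at an unadjusted p under 0.05, and ranged from 0 to 1 when 1 replicate was left out. The median difference of -1.05 over tested Hox probe sets became -0.51 over all 59, with or without the filter in the fit; the untested members are the dimmer ones. Against Bdh2 morphants the count was 0, and 10 at an unadjusted p under 0.05. Bdh2 morphants against controls gave 0, and 2 at an unadjusted p under 0.05. With the replicate number as a block the counts were 1 (smallest adjusted p = 0.0153), 0 (0.0549) and 0 (0.573) in this order. A block that places the array with ectopic Bdh2 in number 2, added after seeing the data, gave 10 against controls and 5 against Bdh2 morphants; the labels put it in number 1, and only the number is shared, so this is no pairing. Over all probe sets the block moved the calls from 62 to 135, 49 to 151 and 0 to 3. The calls against controls were 38 without a filter, 40 without the trend, and 132 and 109 without control replicate 1 or 2. Against Bdh2 morphants they were 17 without a filter, 216 and 222 without control replicate 1 or 2, and 0 without the trend or without Bdh2 morphant replicate 2. No called Hox value changed sign under the alternatives run, while the median of paralogs 1 to 4 with ectopic Bdh2 did under centring (-0.09 in both comparisons). With 5 arrays, 1 of them alone in its group, and many posterior probe sets near the filter, differences of dim probe sets were not detectable one by one.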
